A study of Homo sapiens with 4 samples.

Results

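Peaks in LINE elements are the FOXK2 binding peaks of OVCAR5 cells whose deposited annotation places them in a long interspersed element. They numbered 1044 of 12471 peaks in replicate 1 (8.37%, Wilson 95% interval 7.90% to 8.87%) and 2561 of 27281 peaks in replicate 2 (9.39%, 9.05% to 9.74%). A peak was a member when its detailed annotation named the LINE class, and members were then grouped by repeat family and repeat name. The study examined FOXK2 in high-grade serous ovarian cancer cells and asked which loci this transcription factor binds. OVCAR5, an established ovarian cancer line labelled as derived from ascites, was grown in RPMI with 10% FBS, and its crosslinked chromatin was precipitated with a FOXK2 antibody in 2 biological replicates of the same condition. Neither a treatment nor a genetic change distinguished the samples, so no conditions were compared. Input libraries of the same cells were not analysed here.

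LINEs are retrotransposons that copy themselves through RNA. In the human genome the L1 family holds copies of very different age: L1M names mark old copies shared among mammals, L1P names mark copies that arose in primates, and L1PA with L1HS are the youngest of these. L2, CR1 and the RTE families are older still and no longer move. FOXK2 is a forkhead factor, and the forkhead proteins bind DNA at a core spelled TGTTTAC, called the heptamer below.

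The heptamer occurred in many L1PA7 peaks, and in peaks of some other primate L1 names, within a stretch of bases that recurred from locus to locus. The commonest stretch of L1PA7 peaks in replicate 2, with 10 bases to either side of the heptamer, is shown because later results on its sites and genome copies rest on it. Capitals mark the heptamer, and the line reads 5′ to 3′.
L1PA7 stretch: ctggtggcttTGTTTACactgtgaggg
The L1PA7 stretch was found unchanged at 7 sites in replicate 1 and 18 sites in replicate 2, of which 13 in replicate 2 lay in L1PA7.

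By family, L1 accounted for most members. Replicate 1 held 621 L1, 338 L2 and 46 CR1 peaks, and replicate 2 held 1580, 790 and 109. RTE-BovB had 18 and 41 peaks, RTE-X 16 and 34, Dong-R4 3 in each list, and Penelope 2 and 4. Members carried 122 different repeat names in replicate 1 and 141 in replicate 2, of which 36 names had at least 20 members in replicate 2. They lay in introns (517 and 1257 peaks) and between genes (527 and 1304 peaks) in nearly equal numbers.

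LINE peaks held the heptamer more often than peaks outside repeats. It lay within 100 bp of the centre, on either strand, in 489 of 1044 LINE peaks of replicate 1 (46.8%, 43.8% to 49.9%) and in 1173 of 2561 of replicate 2 (45.8%, 43.9% to 47.7%). Over all peaks of the lists the share was 30.5% and 28.1%. Intron and intergenic peaks without a repeat annotation held it in 34.2% and 30.5% of cases. The difference from these non-repeat peaks was 12.6 percentage points in replicate 1 (odds ratio 1.69, 95% interval 1.48 to 1.93, adjusted p = 3.1e-14 by a two-sided Fisher's exact test) and 15.3 in replicate 2 (odds ratio 1.92, 1.77 to 2.10, adjusted p = 3.8e-49). LTR peaks, at 41.1% and 36.2%, and DNA transposon peaks, at 39.0% and 35.7%, also stood below the LINE peaks (two-sided Fisher's exact adjusted p between 9.9e-10 and 0.0257). Windows of the same length placed 2000 bp to each side of LINE peaks held the heptamer in 3.02% and 2.75% of cases, with odds ratios of 28.3 and 29.9 for peak against flank. Adjusted p-values here cover 72 Fisher tests; peaks of 1 library are not replicates of each other, so these tests compare shares within a list and the second list is the only repeat.

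The excess over non-repeat peaks was greatest for the primate L1 names. L1HS and L1P peaks, 253 in replicate 1 and 569 in replicate 2, held the heptamer in 81.0% (75.7% to 85.4%) and 78.7% (75.2% to 81.9%) of cases. The 344 and 932 L1M peaks held it in 34.0% and 33.5%, so that the primate names exceeded them by 47.0 and 45.3 percentage points (odds ratios 8.29 and 7.36, two-sided Fisher's exact adjusted p = 1.3e-30 and 7.0e-67). Stretches around the heptamer recurred between primate L1 peaks but not between L1M peaks. The exact test counts each peak as independent and does not allow for such likeness. This limit holds for every test here that includes primate L1 peaks. Without the primate L1 peaks, a comparison added after seeing the data, the LINE share was 35.9% in replicate 1 and exceeded non-repeat peaks by 1.68 points (adjusted p = 0.413, two-sided Fisher's exact test). The replicate 2 share was 36.4%, which exceeded them by 5.88 percentage points (adjusted p = 3.3e-07 by the same exact test). These shares were below those of LTR and DNA transposon peaks in replicate 1 and within 1 percentage point of them in replicate 2, differences that were not tested. Relative to their own flanks, L1M peaks still carried the heptamer far more often, with odds ratios of 14.3 (8.96 to 22.7) and 16.0 (11.9 to 21.5).

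Among the primate names, L1PA and L1HS peaks together led with 87.0% of 192 peaks in replicate 1 and 84.3% of 447 in replicate 2, ahead of the other L1P names with 62.3% of 61 and 58.2% of 122. Within L1M, the L1MA, L1MB, L1MC, L1MD and L1ME groups reached at most 41.3% in replicate 1 and spanned 24.8% to 37.6% in replicate 2, the remaining L1M names stood at 45.6% and 38.0%, and the intervals overlapped. HAL1 peaks, from a LINE related to L1, stood between the primate and L1M names at 54.2% and 48.1%. L2 peaks held the heptamer in 36.4% and 38.9% of cases and CR1 peaks in 39.1% and 33.0%. L1 exceeded L2 by 17.6 and 11.6 percentage points (two-sided Fisher's exact adjusted p = 5.0e-07 and 2.0e-07), but L1 without its primate names differed from L2 by -1.06 and -4.24 points (unadjusted p = 0.814 and 0.0680 by the same exact test).

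**Figure D1:**
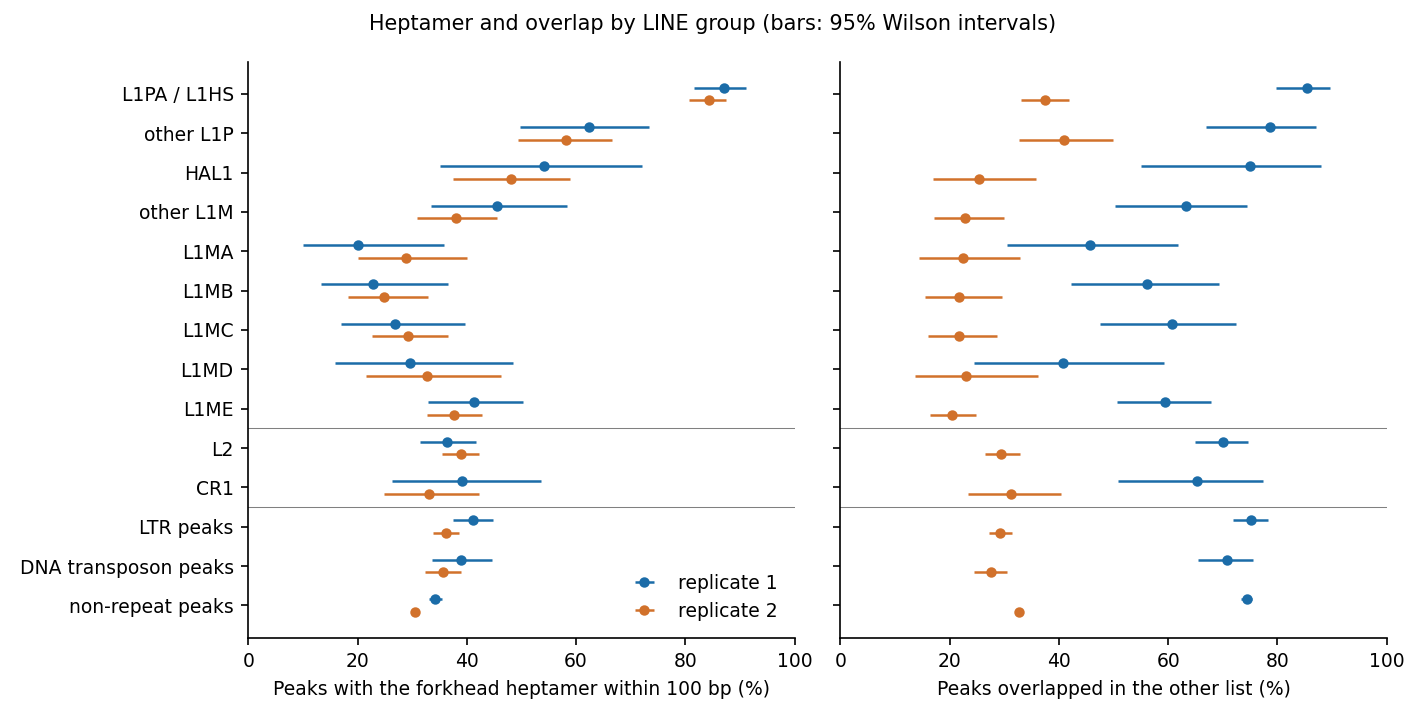
Share of peaks (%, x axes) with the heptamer TGTTTAC within 100 bp of the centre (left) and overlapped by a peak of the other list (right), for L1 groups, other LINE families and non-LINE peaks (y axis). Points are replicate 1 (blue) and replicate 2 (orange) and bars are 95% Wilson intervals; the L1PA and L1HS peaks stand highest on the left, at 87.0% and 84.3%, against 34.2% and 30.5% of non-repeat peaks.

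Single repeat names differed widely in heptamer share. The names with most members in replicate 2 were L2a (293 peaks), L2c (265), L2b (148), L1PA7 (113), L2 (80), L1PA3 and L3 (63 each), L1PA6 (58), HAL1 (56), and L1M5 and L1PA4 (46 each). The heptamer share of replicate 2 was highest for L1PA4 (46 of 46 peaks), L1PA7 (110 of 113, 97.3%) and L1P2 (27 of 28, 96.4%). In replicate 1 the same names held it in 21 of 21, 56 of 56 and 15 of 15 peaks. It was lowest for L1MC3 (3 of 31, 9.68%), L1MB5 (3 of 22, 13.6%) and L1ME4a (4 of 26, 15.4%), for which replicate 1 gave 3 of 18, 1 of 8 and 3 of 9. These names were chosen by their replicate 2 share, so that list is a description of them. Primate and L1M names were not fully apart, with L1PA16 at 17 of 35 peaks (48.6%), L1ME3G at 12 of 23 (52.2%) and L1MC4a at 10 of 20 in replicate 2, all chosen for mention after their values were seen. Of the most frequent names, L2a, L2b and L2c stood at 39.6%, 43.2% and 37.4% in replicate 2 and at 30.2%, 41.3% and 41.0% in replicate 1, without a stable order.

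The L1PA7 stretch was found around a large share of the heptamers of its own name and in a few others. With up to 3 of 20 flanking bases allowed to differ, it surrounded 35 of the 56 heptamers of L1PA7 peaks in replicate 1 (62.5%) and 69 of 110 in replicate 2 (62.7%). L1P3 followed with 7 and 13 sites, and L1P2 with 2 of 15 and 4 of 27. L1PA6 had 2 of 30 and 3 of 56 sites, and L1PA3 none of 14 and 56. Among 133 and 324 heptamers in L2 peaks, 21 and 41 in CR1 peaks and 128 and 337 in L1M peaks, the stretch surrounded none, and in these groups no stretch of 27 bases occurred more than once.

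The heptamer often sat close to the peak centre. The nearest heptamer lay within 25 bp of the centre for 65.9% and 65.6% of the primate L1 peaks that held one, for 48.7% and 57.1% of such L1M peaks, for 62.6% and 66.4% of L2 peaks, and for 58.2% and 61.6% of non-repeat peaks. Counted over all heptamer sites rather than the nearest one per peak, 42.9% and 58.5% of those in CR1 peaks lay that close. For L1M peaks it was 45.3% and 53.7%, for L2 60.9% and 64.2%, and for L1PA with L1HS 66.3% and 64.6%. Peaks of the single name HAL1 gave 44.4% of 9 sites in replicate 1 and 29.0% of 31 in replicate 2.

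**Figure D2:**
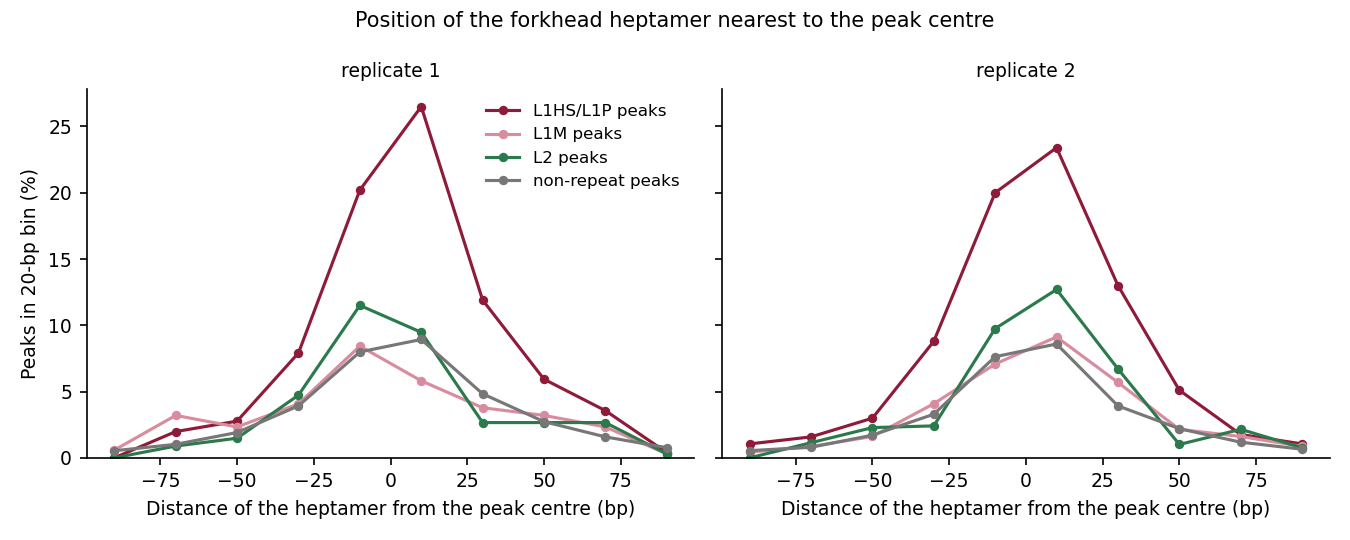
Distance (bp, x axis) of the heptamer nearest to the peak centre, as the percentage of all peaks of each group whose nearest heptamer lay in a 20-bp bin (y axis), for replicate 1 (left) and replicate 2 (right). All 4 lines peak near the centre, and the line of primate L1 peaks, which held the heptamer in 81.0% and 78.7% of cases, is highest there.

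Recovery in the other replicate also differed between primate L1 and L1M names. Peaks were called overlapped when they shared at least 1 bp with a peak of the other list, which held for 74.9% of all replicate 1 peaks and 34.2% of all replicate 2 peaks; the lists differ in length, so the shares differ as well. Of LINE peaks 719 of 1044 (68.9%) and 736 of 2561 (28.7%) were overlapped, against 74.4% and 32.7% of non-repeat peaks (odds ratios 0.763 and 0.828, two-sided Fisher's exact adjusted p = 0.000371 and 9.8e-05). The difference was -5.49 and -4.01 percentage points. It was -10.3 and -6.69 points without the primate L1 peaks, a comparison added after seeing the data (adjusted p = 5.1e-09 and 2.9e-09 by the same exact test). Primate L1 peaks were overlapped in 83.8% and 38.1% of cases, against 57.0% and 21.6% of L1M peaks (odds ratios 3.90, 2.63 to 5.81, and 2.24, 1.78 to 2.82, two-sided Fisher's exact adjusted p = 3.9e-12 and 1.9e-11). L1PA7 had the highest share in replicate 1 among names with at least 20 members there, with 55 of 56 peaks (98.2%), followed by L1PA6 with 29 of 31 (93.5%). Primate names were not alike in this: L1PA3 was overlapped in 11 of 15 peaks of replicate 1 (73.3%) and in 17.5% of 63 in replicate 2, and L1PA5 and L1PA2 in 6 of 7 and 7 of 8 peaks of replicate 1 and in 23.1% of 26 and 28.0% of 25 in replicate 2, against 48.7% of L1PA7 in that list. The mean share of 50-base words in the peaks that occur once in hg38 was 50.9% for L1PA3, 42.8% for L1PA2, 81.0% for L1PA5 and 94.6% for L1PA7 in replicate 2, and its part in the overlap was not tested. All 49 peaks of replicate 1 with the L1PA7 stretch were overlapped, as were 137 of 156 primate L1 peaks with the heptamer in other flanks (87.8%) and 26 of 48 without the heptamer (54.2%). Replicate 2 gave 52.1%, 39.5% and 23.1% in the same order. The stretch was chosen from replicate 2 peaks, so the overlap of replicate 1 peaks that carry it is in part set by that choice. Between L1 and L2 as whole families no difference in overlap passed the test (68.6% against 70.1%, odds ratio interval 0.698 to 1.24, and 27.7% against 29.5%, interval 0.759 to 1.11, two-sided Fisher's exact adjusted p = 0.680 and 0.432). L1 without its primate names differed from L2 in overlap by -12.0 and -7.63 percentage points (unadjusted p = 0.000994 and 0.000245 by the exact test). Among peaks above the median score, L1 with its primate names exceeded L2 by 7.44 and 7.08 points (unadjusted p = 0.0405 and 0.0407 by the same exact test). LTR peaks were overlapped in 75.1% and 29.3% of cases and DNA transposon peaks in 70.8% and 27.5%, and of these only the LTR peaks of replicate 1 differed from LINE peaks (two-sided Fisher's exact adjusted p = 0.00651, the others 0.558 to 0.690).

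LINE peaks were more frequent among weak peaks. With each list cut by score into 10 equal divisions, they made up 5.29% of the highest and 11.9% of the lowest division of replicate 1, and 6.12% and 14.7% in replicate 2. HOMER's peak score is scaled within a library and was ranked only within its own list. The score lay above the list median for 49.3% of all peaks in either list, for 40.0% and 37.3% of LINE peaks, and for 47.9% and 47.6% of non-repeat peaks (two-sided Fisher's exact adjusted p = 4.1e-06 and 2.3e-21). LTR peaks (41.7% and 39.1%) differed from LINE peaks by less than 2 percentage points (two-sided Fisher's exact adjusted p = 0.562 and 0.273). DNA transposon peaks, at 42.0% and 42.4%, exceeded LINE peaks by 1.93 and 5.07 points (adjusted p = 0.584 and 0.0142 by the same exact test). Among LINE peaks the heptamer share was 60.6% in the highest-scoring division and 37.8% in the lowest for replicate 1, and 58.1% and 44.0% for replicate 2. When only peaks above the median score were compared in replicate 2, LINE peaks were overlapped slightly more often than non-repeat peaks, with a difference of 1.57 points (p = 0.365 by the exact test). In replicate 1 they were still overlapped less often, in 87.6% against 90.8% of cases, a difference of -3.27 points (p = 0.0409 by the same exact test).

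**Figure D3:**
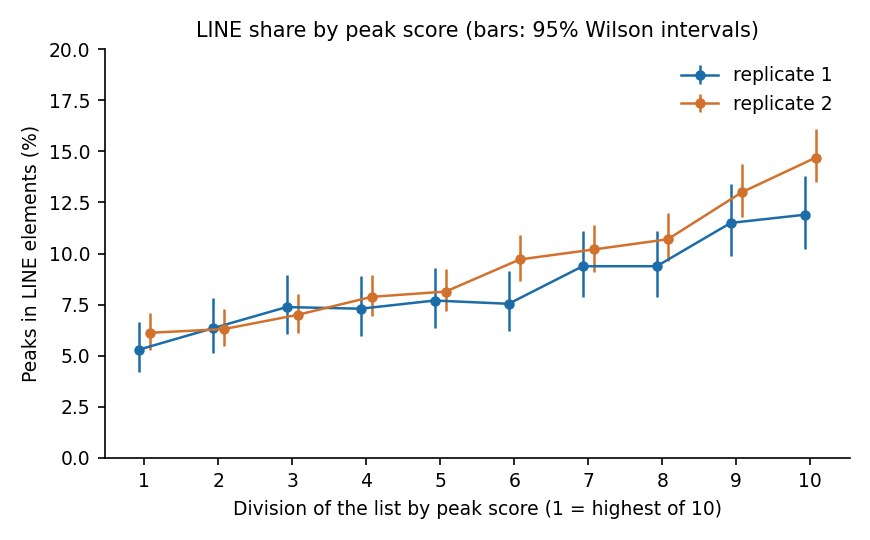
Percentage of peaks that lie in LINE elements (y axis) in each of 10 equal divisions of the list by peak score (x axis, 1 = highest), with 95% Wilson intervals. The share is 5.29% and 6.12% in the highest division of replicates 1 and 2 and 11.9% and 14.7% in the lowest.

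The AP-1 site TGACTCA, bound by dimers of JUN and FOS proteins, went the other way. It was present in 16.8% and 15.5% of LINE peaks, close to the 16.3% and 16.5% of all peaks, and in 21.3% and 20.9% of non-repeat peaks (odds ratios 0.743 and 0.696, two-sided Fisher's exact adjusted p = 0.000911 and 4.0e-10). Among peaks above the median score the replicate 1 difference was -1.24 points (p = 0.622 by the exact test). The replicate 2 difference among such peaks was -3.86 points (p = 0.00792 by the same exact test). Flanks of LINE peaks held it in 2.68% and 2.44% of cases. Primate L1 peaks held it in 6.32% and 5.27%, against 20.6% and 17.2% of L1M peaks (odds ratios 0.260 and 0.269, two-sided Fisher's exact adjusted p = 9.8e-07 and 4.7e-12). No L1PA7, L1PA4 or L1P2 peak of either list held it. Without the primate names replicate 1 showed a difference of -1.22 points (p = 0.460 by the exact test), and replicate 2 one of -2.44 points (p = 0.0120 by the same exact test). TGTGGT, a core bound by RUNX factors, was in 24.6% of LINE and 19.8% of non-repeat peaks of replicate 2 (adjusted p = 9.7e-08, two-sided Fisher's exact test), while the difference of 2.70 percentage points in replicate 1 did not pass (exact adjusted p = 0.0546). Primate L1 peaks held it in 28.9% and 33.9% of cases, and LINE peaks without them in 19.8% and 21.9%. The TGTGGT share was 19.3% in non-repeat peaks of replicate 1, and over all peaks it was 16.7% and 17.7%. GGAATG, a core bound by TEAD factors, was in 18.8% and 18.7% of LINE peaks against 19.5% and 18.4% of non-repeat peaks (exact adjusted p = 0.639 and 0.761). Over all peaks the GGAATG share was 16.6% and 16.2%.

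Where TGTGGT sites occurred near the L1PA7 stretch, they mostly stood at the same distance. The 49 and 94 sites of the stretch had 15 and 29 TGTGGT sites within 200 bp. Of the TGTGGT sites within 200 bp of its heptamer, 12 of 15 in replicate 1 and 22 of 29 in replicate 2 began 39 bases before the heptamer on the same strand. That distance is the commonest in these same peaks. The stretches were chosen by matching flanks, so a common distance is in part set by that choice. It was not compared with copies outside peaks.

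The genome holds many more copies of the L1PA7 stretch than lay inside peaks. This comparison was added after seeing the data. Chromosomes 1 to 22, X and Y of hg38 contained 1446 places where at most 3 of the 20 flanking bases differed from it, with any 7 bases between the arms. Of these, 49 lay in a replicate 1 peak (3.39%) and 94 in a replicate 2 peak (6.50%). The flanks were chosen from heptamer-bearing peaks of replicate 2, so that replicate 2 is in part used by the choice, and all 49 copies in replicate 1 peaks also lay in replicate 2 peaks. The heptamer was intact in 853 copies, had 1 base changed in 258 and had 2 or more changed in 335.

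Every copy inside a peak had the intact heptamer. In replicate 1 the 49 copies in peaks were 5.74% of the intact copies (4.37% to 7.51%), and in replicate 2 the 94 were a share with a 95% interval of 9.09% to 13.3%. None of the 258 copies with 1 changed base was in a peak of either list, which allows a share of up to 1.16% by the limit of 3 counts and of 1.47% by the Wilson interval. No test is read from this, since the flanks were taken from around intact heptamers inside peaks. Numbering the heptamer from 1 at its 5′ base, most changes fell at positions 7 and 2, in 80 and 73 copies. The commonest single change was C7T, present in 72 copies, followed by G2A in 34.

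Uniqueness of the sequence was examined beside these counts. Reads were 50 bp long, and a read that matches several copies equally well has no single place in the genome. The share of 50-base words around a copy that occur once in hg38 averaged 92.4% for intact copies. Of the 799 intact copies with at least 75% unique words 48 and 91 were in peaks (6.01% and 11.4%), and of the 346 with unique words alone 16 and 32 (4.62% and 9.25%).

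**Figure D4:**
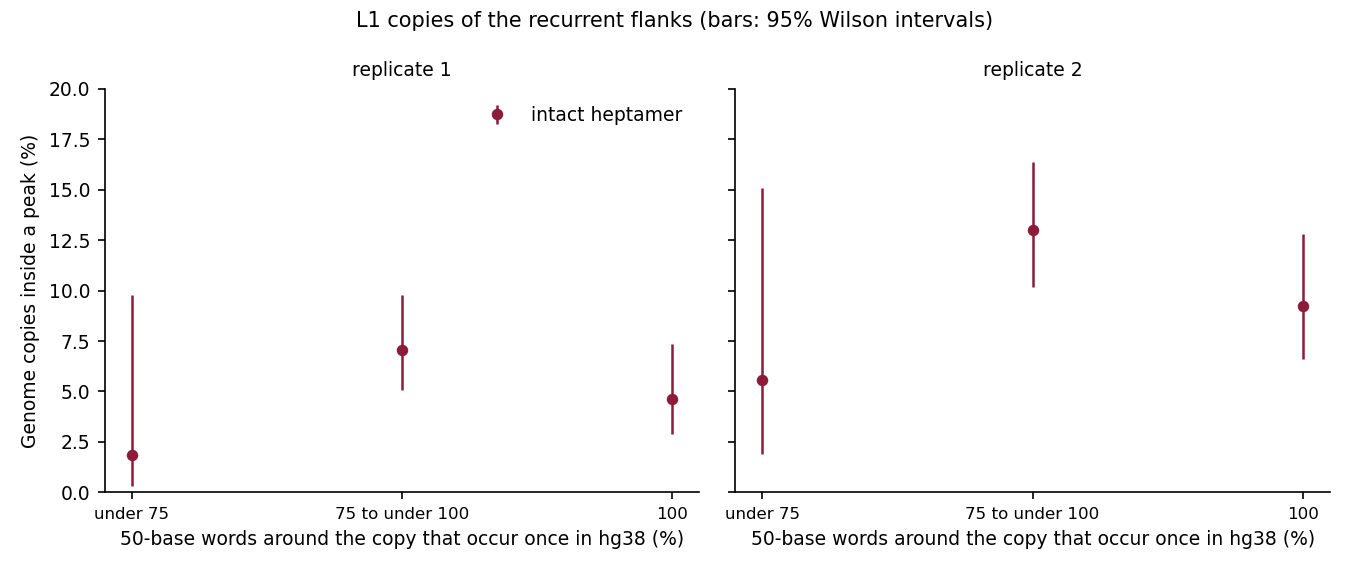
Percentage of genome copies of the L1PA7 stretch with the intact heptamer that lie inside a peak (y axis) by the share of 50-base words around the copy that occur once in hg38 (x axis), in replicate 1 (left) and replicate 2 (right), with 95% Wilson intervals. Copies with 75% to under 100% unique words reach 7.06% and 13.0% and those with unique words alone 4.62% and 9.25%; the lowest bin holds just 54 copies, and the intervals of the bins overlap.

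Most intact copies were outside any peak, also where reads could be placed. Of the intact copies with at least 75% unique words, 91 lay in a peak of either list and 708 in none. The median GC content within 100 bp was 55.5% for copies in peaks and 55.0% for the others. TGTGGT was present within 100 bp of 27.5% of copies in peaks and 36.4% of those outside. The median distance to the nearest GENCODE transcript start was 18548 bp for copies in peaks against 25818 bp for the others. Intact copies on chromosome X were in peaks less often than those on the other chromosomes, in 1 and 2 of 94 cases (1.06% and 2.13%) against 6.32% and 12.1% (two-sided Fisher's exact adjusted p = 0.0426 and 0.00201). The flanks came from replicate 2 peaks, and every copy in a replicate 1 peak also lay in a replicate 2 peak. The lists are therefore not separate repeats of this test. The X chromosome also held few peaks of any kind, 89 of 12471 and 381 of 27281, and the number of X chromosomes in these cells was not examined.

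At 658 loci both lists had a LINE peak. At 650 of these the repeat name was the same, which mostly follows from the overlap itself. A further 61 overlapped LINE peaks of replicate 1 and 78 of replicate 2 had a partner without a LINE annotation. Score percentiles of the paired peaks, with 100 as the highest, correlated with Spearman's rho of 0.836 over the 658 loci, 0.805 over 413 L1 loci, 0.874 over 197 L2 loci and 0.894 over 26 CR1 loci, given as a description since the points come from the same pair of libraries.

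**Figure D5:**
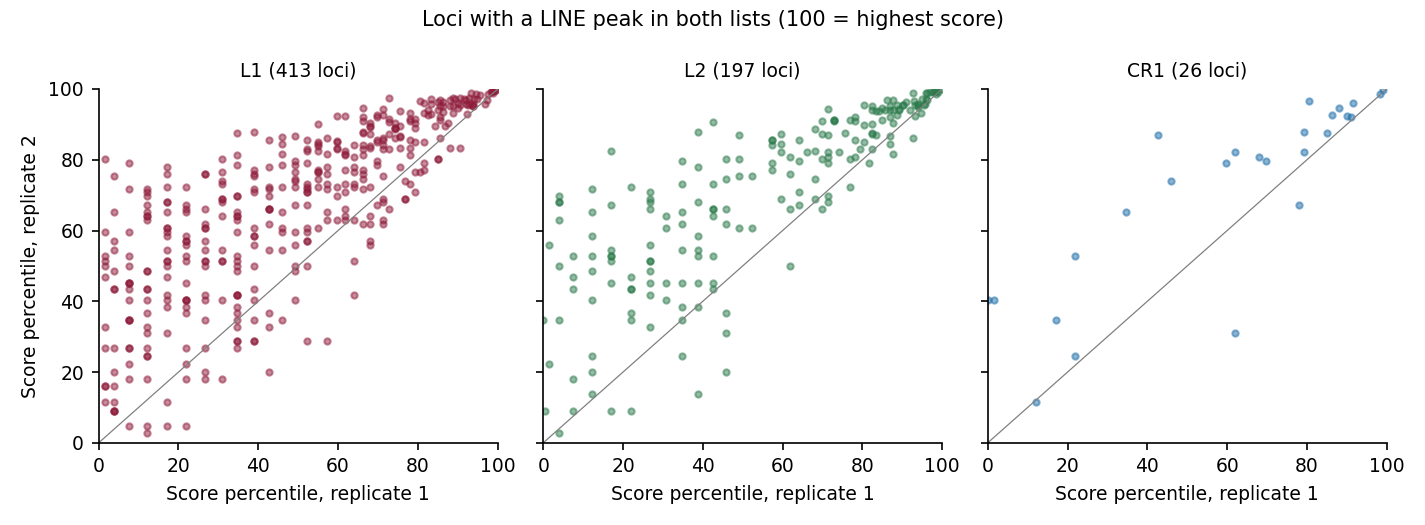
Score percentile in replicate 2 (y axis) against replicate 1 (x axis, 100 = highest score) for loci with a LINE peak in both lists, by family, with 1 point per locus and the line of equality in grey. Percentiles of the lists rise together in all 3 families with scatter about the trend, and the median percentile of L1 loci is 49.1 in replicate 1 and 70.8 in replicate 2.

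The strongest L1 loci included old and young elements. An L1P3 peak at chr2:224485384-224485594, whose nearest TSS is that of FAM124B 83495 bp away, ranked 39 of its list in replicate 1 and 60 in replicate 2. An L1ME2z peak at chr5:74063926-74064136, nearest to LINC01335, ranked 72 and 99 and held neither the heptamer nor the AP-1 site. L1PA7 peaks in intron 1 of STK32A-AS1 (chr5:147216650-147216860, ranks 131 and 133) and in intron 3 of EEPD1 (chr7:36258527-36258737, ranks 143 and 274) held the heptamer. The heptamer windows of these primate L1 loci, in capitals as above, are set beside the L1PA7 stretch. They differed from it at 2, 4 and 3 of the 20 flanking bases in the order printed, so the STK32A-AS1 locus lay outside the limit of 3.
FAM124B, L1P3: ctggaggcctTGTTTACactgtgaggg
STK32A-AS1, L1PA7: ctggcagcctTGTTTACactgtgagga
EEPD1, L1PA7: caggcggcttTGTTTACattgtgaggg
An L1MC3 peak nearest to LINC01565 (ranks 167 and 179) held both the heptamer and TGACTCA. The others among the 8 best L1 loci were an L1P2 peak nearest to SNORD38D (ranks 220 and 209), an L1ME3G peak in SLC4A5 (310 and 400) and an L1MC5a peak nearest to MIR1208 (323 and 880).

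The best LINE locus of all was in an L2 element. The peak at chr2:153059720-153059930 lies between genes, 341188 bp from the TSS of ARL6IP6, ranked 23 in replicate 1 and 24 in replicate 2, and held no heptamer but the AP-1 site. Further L2 loci lay near LINC02349 (chr15:61556050-61556260, L2c, ranks 143 and 226), LINC01991 (L2c, 195 and 183), SLCO4A1 (L2a, 195 and 368) and ZC3H12C (L2c, 260 and 230). CR1 was represented by an L3 peak in intron 3 of LRRC4C, a synaptic adhesion gene (ranks 118 and 108), and an L3b peak in intron 1 of SPATS2L (200 and 380). All of these except the SLCO4A1 and ARL6IP6 loci held the heptamer. The windows of 4 of them are printed, with the heptamer in capitals.
LINC02349, L2c: tttctgccccTGTTTACttggggaatt
LINC01991, L2c: taacatgcttTGTTTACacttgtatca
LRRC4C, L3: cccctcaactTGTTTACattagctatg
SPATS2L, L3b: gtctttcactTGTTTACtttgttatcc
The 200 bases at the centre of the ARL6IP6 locus, chr2:153059726-153059925 on the plus strand of hg38, are printed below. They show a strong LINE peak without the heptamer, and capitals mark TGACTCA. The shorter core TGTTTA, which is the heptamer without its last base, does stand in them, in small letters just before TGACTCA.
ARL6IP6, L2: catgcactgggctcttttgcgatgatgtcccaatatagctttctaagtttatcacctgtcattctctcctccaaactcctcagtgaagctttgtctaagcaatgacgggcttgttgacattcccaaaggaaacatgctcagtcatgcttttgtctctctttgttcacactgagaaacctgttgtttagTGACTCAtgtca

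LINE peaks were assigned by nearest TSS to 968 genes in replicate 1 and 2235 in replicate 2, with 682 in both. These were 11.6% and 16.1% of all genes with any peak. Of 8 genes followed in the study, all of which had a peak in each list, 2 had a LINE peak in replicate 1 (KLF9 and ATXN1) and 4 in replicate 2 (the same and ERN1 and FOXK2). Of 20 genes of the unfolded protein response 8 and 14 had any peak, and 0 and 2 had a LINE peak, the latter 14.3% of those with a peak. Of 15 stemness genes 7 and 10 had any peak, and 0 and 1 had a LINE peak, the latter an L2c peak 222874 bp from KLF4, which encodes a pluripotency factor. ERN1, which encodes the stress sensor IRE1α, had 1 peak in replicate 1 and 3 in replicate 2, of which 1 in replicate 2 lay in an L2a element of intron 2 at chr17:64084633-64084889. It ranked 5177 and had no overlapping peak in replicate 1. The ERN1 site reported in the paper, also in intron 2, lies outside this interval. The other peaks assigned to ERN1 were not in LINE elements. ATF6, another sensor of the unfolded protein response, had an L1P1 peak in intron 9 in replicate 2 only, at rank 23158, and FOXK2 itself an L1M4 peak in intron 1 in replicate 2 only, at rank 18588.

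KLF9 and ATXN1 had LINE peaks that overlapped between the lists. The KLF9 peak, in an L2a element 55900 bp from the TSS of this zinc-finger factor gene, ranked 4348 in replicate 1 and 5462 in replicate 2 and held the heptamer. The ATXN1 peak, in an L2c element of intron 3 of the ataxin-1 gene, ranked 3663 and 9092 and held the heptamer and TGACTCA. A second ATXN1 peak, in L1ME3A at rank 12378, was in replicate 1 only. IGF1R, KDM3A, JUNB and DDIT4 had no LINE peak in either list. The centres of the replicate 2 peaks are printed for comparison with the recurrent L1PA7 stretch, on the plus strand of hg38, with heptamers and AP-1 sites of either strand in capitals.
KLF9, L2a, chr9:70470468-70470667: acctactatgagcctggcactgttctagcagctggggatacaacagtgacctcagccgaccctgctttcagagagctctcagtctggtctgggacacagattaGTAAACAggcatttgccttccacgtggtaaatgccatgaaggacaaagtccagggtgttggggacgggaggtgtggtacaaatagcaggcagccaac
ATXN1, L2c, chr6:16677054-16677253: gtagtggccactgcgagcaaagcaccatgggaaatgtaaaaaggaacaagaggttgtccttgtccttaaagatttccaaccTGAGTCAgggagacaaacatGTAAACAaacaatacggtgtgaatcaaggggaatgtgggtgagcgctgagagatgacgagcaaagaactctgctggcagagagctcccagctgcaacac
ERN1, L2a, chr17:64084662-64084861: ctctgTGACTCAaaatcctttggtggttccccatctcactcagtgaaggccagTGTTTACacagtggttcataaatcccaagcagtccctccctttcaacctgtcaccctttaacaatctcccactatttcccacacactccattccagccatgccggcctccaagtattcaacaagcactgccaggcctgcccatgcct

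Among genes with a LINE peak in replicate 1, the 5 with most LINE peaks in replicate 2 are named here. They mostly had them beyond the median TSS distance of LINE peaks, 38353 bp in replicate 2. CBLB, which encodes a ubiquitin ligase of lymphocyte signalling, had 3 and 5 LINE peaks, all upstream of it and between genes, and the 3 of replicate 1 were all overlapped. The best of them, in L1ME4b at 244847 bp from the TSS, ranked 2659 and 2416 and held the heptamer. HIVEP3, a zinc-finger gene, had 2 and 4, of which the nearest, in L2a, lay 16858 bp from the TSS in replicate 2, and INTU, a gene of ciliogenesis, had 1 and 4. LINC00562 and LOC105369443 had 3 in each list; of those in replicate 1, 2 at LINC00562 and 1 at LOC105369443 were overlapped. The nearest of them to a TSS was an L1PA6 peak 24241 bp from LINC00562. Most genes with LINE peaks had just 1, namely 908 of 968 in replicate 1 and 1948 of 2235 in replicate 2.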

How the data were processed

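Deposited FOXK2 peak lists of OVCAR5 cells, 1 for each of 2 biological replicates, were the data used. The authors mapped single-end 50-bp reads to hg38 with Bowtie2 2.2.6 at standard settings and called peaks with HOMER 4.10, per library. The deposited score is HOMER's peak score, the deposited focus ratio a fraction of tags placed as a focused peak predicts, and the distance to the TSS is in bp. How HOMER used the input libraries is not given in the sources used here.

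Members, gene lists and tests were chosen with earlier results of these data known. Motif matches on either strand were counted up to 100 bp from each centre, and in flanks 2000 bp away. Shares carry Wilson 95% intervals, which cover counting error only, and were compared by two-sided Fisher's exact tests with Benjamini-Hochberg adjustment. Total reads per library are unknown. Another stretch recurrent in L1 is not reported here. Words of 50 bases were counted over 194 hg38 contigs. Named loci were the 8 L1, 5 L2 and 2 CR1 loci with a LINE peak in both lists and the best mean score percentile. Named genes were the 5 with most LINE peaks in replicate 2 among genes with a LINE peak in replicate 1 (ties by replicate 1, then symbol). The genes the study followed, 20 unfolded protein response and 15 stemness genes were named as well. Named repeats were the 10 most frequent, with ties. Also named were the 3 repeats with the highest and the 3 with the lowest heptamer share among those with at least 20 members. Alternatives were named chromosomes only, higher-scoring peaks, stricter overlap, 50-bp windows, flanks 10000 bp away, the core TGTTTA, all non-LINE peaks and each list alone; those without primate L1 and on genome copies were added after seeing the data. Search, overlap and word steps were tested on simulated data. Scripts ran in Python 3.11.15 with pysam 0.24.0, numba 0.67.0, pandas 2.3.3, scipy 1.17.1, numpy 2.4.6, samtools 1.23.1 and matplotlib 3.10.9. GENCODE release 44 gave transcript starts.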

Additional observations from a re-analysis of the deposited data

How the results depend on the processing

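Of 76 alternatives to 26 tested results, genome copies aside, 61 left direction and side of the 0.05 threshold as they were. Counting loci of either list once gave 2947, and each list alone 1044 to 2561; peaks above the median score left 418 and 956 members. Among those peaks the AP-1 deficit of replicate 1 shrank to -1.24 percentage points (exact p = 0.622), and that of replicate 2 was -3.86 (exact p = 0.00792). The overlap difference was -3.27 in replicate 1 (exact p = 0.0409) and turned to 1.57 in replicate 2. L1 exceeded L2 in overlap among them by 7.44 and 7.08 points (exact p = 0.0405 and 0.0407). Without the primate names, the LINE difference in replicate 1 fell to 1.68 points for the heptamer and -1.22 for AP-1, while AP-1 in replicate 2 gave -2.44 (exact p = 0.0120). L1 minus L2 then became -12.0 and -7.63 points for overlap (exact p = 0.000994 and 0.000245), -1.06 and -4.24 for the heptamer, and 2.88 and -1.75 for AP-1, which was -3.07 and -6.01 with them (exact adjusted p = 0.273 and 0.000225). L1 minus L2 in scores above the median was -8.44 and -7.72 points (exact adjusted p = 0.0168 and 0.000387), and among overlapped peaks -5.09 and -1.31 (exact p = 0.224 and 0.779). Primate against older L1 scores in replicate 2 differed by 5.03 points (exact p = 0.0499, adjusted 0.0609), and by 3.39 with L1PA and L1HS names alone (exact p = 0.223). The cause of these shifts was not tested. No paired analysis was possible because FOXK2 libraries share replicate numbers with input alone, and input was not analysed here. Read depth is unknown, so a copy outside the peaks may lie below the calling limit, and copies with few unique words cannot be judged.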

Other observations

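L1MC3 had few heptamers but many AP-1 sites: TGACTCA was in 7 of 18 L1MC3 peaks of replicate 1 (38.9%) and 13 of 31 of replicate 2 (41.9%), chosen for mention after these values were seen. In 5 and 7 of these peaks the 4 bases before the site were the same, giving AACATGACTCA. That longer word was in 4.00% and 3.27% of all LINE peaks with TGACTCA, the L1MC3 peaks included, and in 1.18% and 1.02% of non-repeat peaks with it. MamRTE1, the name of all RTE-BovB members, held TGACTCA in 27.8% of 18 and 29.3% of 41 peaks, and 72.2% and 56.1% of its peaks scored above the list median, against 40.0% and 37.3% of all LINE peaks. CR1 peaks held it in 32.6% of 46 and 25.7% of 109.

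Primate L1 peaks differed from the other LINE peaks in composition. Their median GC content was 55.0% and 55.5%, against 39.0% and 38.5% for L1M peaks and 43.5% and 43.0% for L2 peaks. Their median focus ratio, the fraction of tags placed as a focused peak predicts, was 0.821 and 0.830 against 0.756 and 0.758 for L1M. Another peak lay within 10000 bp of 5.93% and 11.2% of primate L1 peaks, of 18.0% and 28.0% of L2 peaks and of 16.8% and 26.3% of non-repeat peaks. By chromosome the LINE share of peaks was lowest on chromosome 19, at 4.26% and 5.61%, and highest on chromosome 8, at 11.8% and 12.7%.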
